A study of Homo sapiens with 6 samples.

Results

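The FOS, JUN and small MAF genes encode transcription factors of the basic leucine zipper class, and they were compared here between compound-treated and vehicle-treated SH-SY5Y cells. SH-SY5Y is an established line grown from a human neuroblastoma, a tumour of sympathetic nerve precursors. The members were a list of 10 genes, chosen with earlier results of these data known. They were FOS, FOSB, FOSL1 and FOSL2 of the FOS family, JUN, JUNB and JUND of the JUN family, and MAFF, MAFG and MAFK of the small MAF family. Of these, 9 had a named probe set, 1 each, among the 17687 genes measured, and MAFK was not analysed here. Gene expression was read on Affymetrix whole-transcript arrays of 1 colour as log2 signals. There were 3 arrays labelled 15EN and 3 labelled VC, which the labels spell out as vehicle control without naming the vehicle. The code 15EN is not spelled out in the labels, the treatment text gives a bioactive compound at 15 µM, and the series title names eurycomanone, from roots of Eurycoma longifolia Jack. The treatment text is the same for all samples and gives differentiation with atRA, a retinoid, over 96 h, so both groups are taken to share it. Replicates 1, 2 and 3 of each group are titled with passages 33, 34 and 35 of this single line, whereas the descriptions name passage 33 throughout. No label states that samples within a group were grown as separate cultures. The p-values therefore reflect variation among these arrays, part of which may be technical.

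FOS and JUN proteins pair through their leucine zippers to form AP-1, a dimeric activator of genes that respond to growth factors and stress. FOS proteins need a JUN partner to bind DNA, whereas JUN proteins can also pair with each other or with ATF proteins. The small MAF proteins lack an activation domain: they pair with NFE2L2 (NRF2) and its relatives to activate antioxidant genes, or with BACH proteins to repress them. FOS, FOSB, JUN and JUNB are classical immediate-early genes whose transcripts appear briefly after a stimulus, while FOSL1 (FRA-1) and FOSL2 (FRA-2) are induced later and last longer, partly through AP-1 acting on their own genes.

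The promoters of FOS, JUN, FOSL2 and MAFF are shown because they carry the cAMP response element letters that recurred in the promoters of these genes, and because the first pair and the last pair differ in the arrays as described after them. The sequences are the bases 180 to 1 before the annotated start, from RefSeq (GRCh38.p14), and capitals mark TGACGTCA, the element in full, TGACATCA, the variant known as the AP-1-like site of the JUN promoter, and the shorter core TGACG.
FOS, chr14:75278648-75278827, + strand: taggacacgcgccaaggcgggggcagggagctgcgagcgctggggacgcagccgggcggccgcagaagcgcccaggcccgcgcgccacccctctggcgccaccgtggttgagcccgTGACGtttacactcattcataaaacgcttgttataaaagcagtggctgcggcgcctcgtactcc
JUN, chr1:58784048-58784227, - strand: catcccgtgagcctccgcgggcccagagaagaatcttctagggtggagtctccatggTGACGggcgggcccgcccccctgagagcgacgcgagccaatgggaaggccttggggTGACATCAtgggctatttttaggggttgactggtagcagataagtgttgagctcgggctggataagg
FOSL2, chr2:28392678-28392857, + strand: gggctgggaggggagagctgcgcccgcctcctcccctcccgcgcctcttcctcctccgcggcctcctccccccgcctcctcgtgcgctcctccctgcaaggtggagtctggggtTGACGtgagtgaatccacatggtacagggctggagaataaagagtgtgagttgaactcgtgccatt
MAFF, chr22:38201814-38201993, + strand: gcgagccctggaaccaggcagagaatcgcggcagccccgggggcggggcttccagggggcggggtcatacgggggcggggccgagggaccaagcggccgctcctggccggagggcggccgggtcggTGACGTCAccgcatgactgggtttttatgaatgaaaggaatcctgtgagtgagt
The RefSeq table held a window for 8 of the genes (250 bases before to 50 after the start), and for MAFF the window at the gene's first start was used. FOSL1 and MAFK are named only. On either strand, the core TGACG was found in 8 of 8 windows, against 24.6% of the 35116 windows in the table. It lay 64 bases before the start in FOS, 60 in FOSB and 66 in FOSL2. The full element TGACGTCA, which holds the core, was found in MAFF and JUND, against 1.85% of windows, and TGACATCA in JUN, 67 bases before the start, against 2.61%. The AP-1 element TGANTCA was found in 1 of 8, FOSL2, where it lies just after the start and outside the stretch shown, against 7.71% of windows. The antioxidant response core TGACNNNGC, bound by small MAF dimers, was found in JUND and MAFF, against 13.3%, and in JUND 1 of its matches overlaps a TGACG core. The CArG box, bound by SRF, was found in 0 of 8, against 1.29%, an element too rare for 8 windows to be informative. Sites more than 250 bases before the start were not searched. The shares are over all windows in the table and were not matched for base composition. The core TGACG was put forward because it recurred in these same windows, so its count is no separate evidence. These matches describe letters in short windows and do not show binding.

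The 6 arrays had median log2 signals of 7.67 to 7.75. A gene was called dim when its group mean lay below the 90th percentile of negative controls (7.41 to 7.99 per array), and 46.9% of all genes were dim in both groups. Of the 15EN arrays, replicate 3 stood apart. On the first principal component (64.2% of the variance) it lay at -25.2. The other 15EN arrays lay at -61.1 and -61.9 there and VC arrays between 48.4 and 50.4. All other arrays lay between -0.36 and 20.4 on the second component (17.1%), where 15EN replicate 3 lay at -56.7. Values of the members and counts of the related lists are therefore given with and without it. The calls at adjusted p 0.05 covered 21.4% of genes, 12.3% higher and 9.09% lower in 15EN. The hybridization controls were dimmer in 15EN (10.3 to 10.6) than in VC (11.2 to 11.4). Scaling to them moved the difference of the median gene from 0.01 to 0.88 and the split of calls from 2179 higher and 1608 lower to 12150 higher and 437 lower, so differences are relative to the median gene. In RNA from whole cultures, fewer expressing cells and less RNA per cell cannot be told apart.

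FOSL1 and FOSL2 rose in 15EN at every passage. FOSL1 encodes FRA-1, a late-acting FOS protein that lacks the activation domain of FOS. In replicates 1, 2 and 3 of 15EN its log2 signal reached 12.18, 12.96 and 11.99, against 8.33, 9.56 and 7.80 in VC. The groups did not overlap, and VC replicate 2 was the highest VC array. The log2 difference was 3.81 ± 0.42 (SE, n = 3 per group, limma adjusted p = 0.000343), a 14.1-fold higher signal, and 0.0452% of genes had a difference at least as high. VC replicate 3, at 7.80, was at its array's 90th percentile of negative controls (7.80), so the size of the fold is uncertain. FOSL2, which encodes the related FRA-2, was at 11.66, 12.88 and 11.63 in 15EN and at 9.46, 10.39 and 10.04 in VC. Here too each 15EN array lay above each VC array, with replicate 2 the highest of both groups. The difference was 2.09 ± 0.36 (SE, adjusted p = 0.00289), or 4.27-fold. At each passage FOSL1 differed by more than FOSL2. Without 15EN replicate 3 the log2 differences were 4.01 ± 0.44 for FOSL1 (adjusted p = 9.92e-05) and 2.31 ± 0.36 for FOSL2 (adjusted p = 0.000827). Scaling, filters and the omission of any single array left both past the threshold, with adjusted p up to 0.00355 for FOSL1 and 0.0175 for FOSL2.

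**Figure D1:**
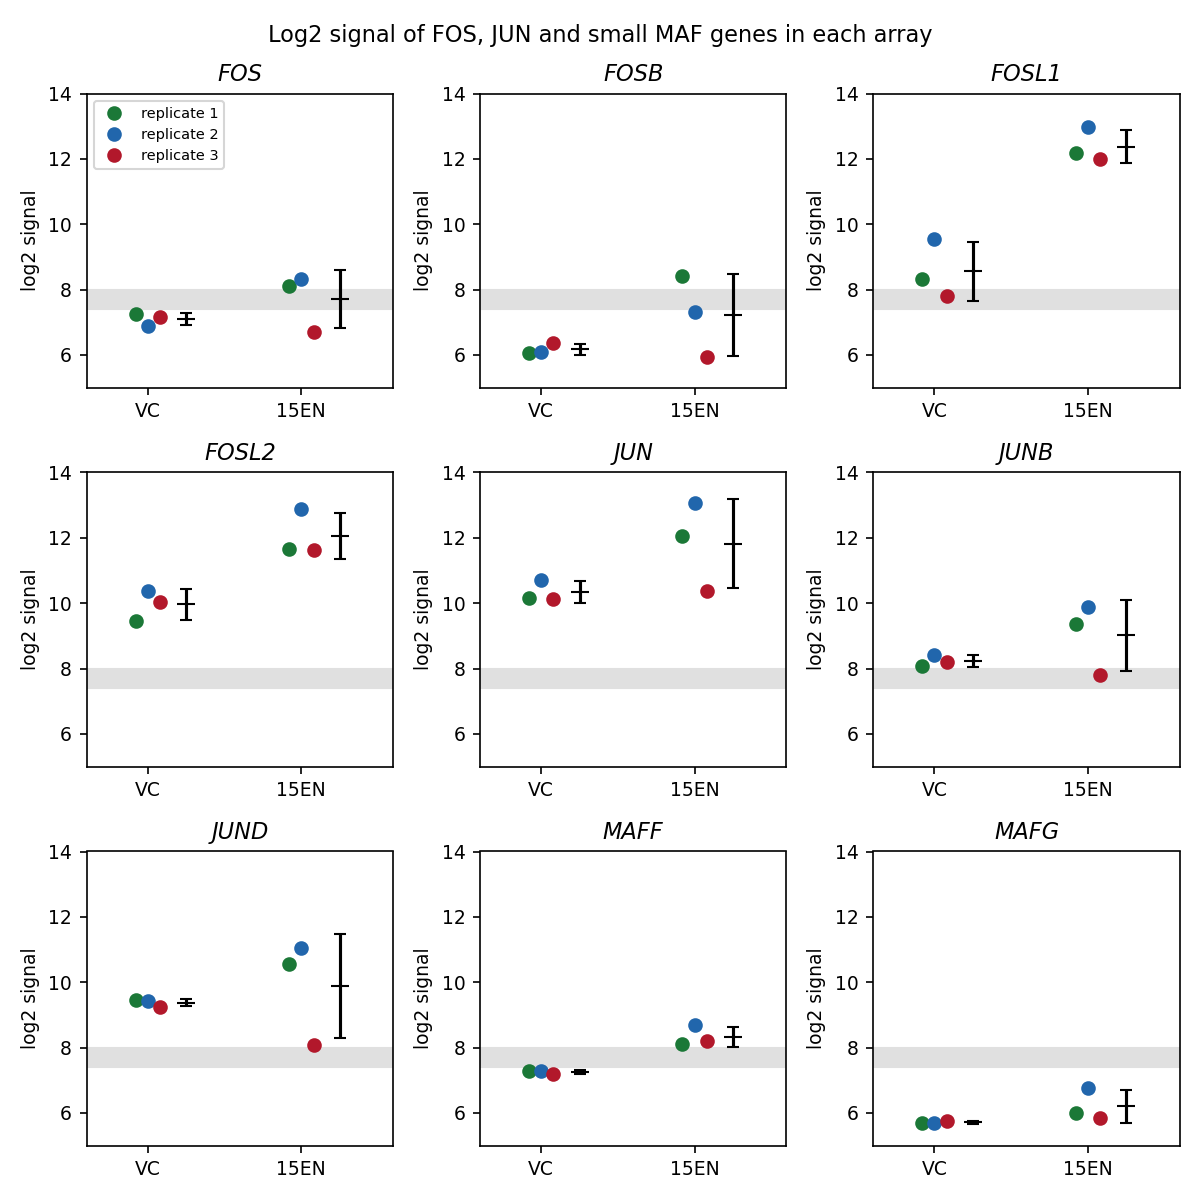
Log2 signal of the 9 measured genes in each array, coloured by replicate number, with the group mean and SD as bars beside the points. The grey band spans the 90th percentile of the negative controls over the 6 arrays (7.41 to 7.99), and 15EN replicate 3 falls to the level of the VC arrays or below it for FOS, FOSB, JUN, JUNB and JUND, lies 0.06 above the VC array of its number for MAFG, and stays clear of the VC arrays for FOSL1, FOSL2 and MAFF.

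FOS and FOSB did not pass the test over all 6 arrays, and in both the 15EN arrays disagreed. FOS, the founding AP-1 subunit, was at 8.12, 8.33 and 6.70 in 15EN replicates 1, 2 and 3, against 7.24, 6.88 and 7.18 in VC. Replicates 1 and 2 lay above all VC arrays and replicate 3 below all of them. The log2 difference was 0.62 ± 0.38 (SE, adjusted p = 0.306, 95% interval -0.22 to 1.46). FOSB, also a subunit with an activation domain, was at 8.42, 7.30 and 5.93 in 15EN and at 6.06, 6.08 and 6.38 in VC. Its 15EN arrays spread over more than the whole VC range, again with replicate 3 lowest. The difference was 1.04 ± 0.49 (SE, adjusted p = 0.177, 95% interval -0.05 to 2.14). Without 15EN replicate 3, FOS differed by 1.13 ± 0.21 (adjusted p = 0.0024) and FOSB by 1.69 ± 0.30 (adjusted p = 0.00179). Both genes were dim in VC, and FOSB in 15EN as well, so the sizes of these differences are uncertain.

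The JUN family split in the same way by array. JUN, the AP-1 subunit that FOS proteins pair with and that JNK kinases phosphorylate, was at 12.06, 13.06 and 10.36 in 15EN, against 10.17, 10.72 and 10.13 in VC. Replicates 1 and 2 of 15EN were above every VC array, and replicate 3 lay within the VC range. The log2 difference was 1.49 ± 0.54 (SE, adjusted p = 0.0793), or 2.81-fold. The replicate numbers pair the samples by passage, and with the replicate number as a block the difference was the same, with an SE of 0.36 and adjusted p = 0.0141. All 3 passage differences of JUN were above 0, at 1.89, 2.34 and 0.23. JUNB, which encodes a weaker activator that can restrain JUN, was at 9.37, 9.88 and 7.80 in 15EN and at 8.07, 8.43 and 8.20 in VC. Its replicate 3 lay below all VC arrays, and the difference was 0.79 ± 0.44 (SE, adjusted p = 0.259, 95% interval -0.19 to 1.76). JUND, the family member usually present in resting cells, was at 10.57, 11.04 and 8.08 in 15EN and within 9.26 to 9.45 in VC. It had the largest contrast between 15EN arrays among the 9 genes, replicate 3 lying 2.72 below the mean of replicates 1 and 2. Its difference over all arrays was 0.52 ± 0.61 (SE, adjusted p = 0.629, 95% interval -0.83 to 1.86). Without 15EN replicate 3, the log2 differences were 2.22 ± 0.31 for JUN (adjusted p = 0.000384), 1.39 ± 0.23 for JUNB (adjusted p = 0.0011) and 1.43 ± 0.22 for JUND (adjusted p = 0.000745). Without 15EN replicate 2, JUND differed by -0.05, so its direction rests on which of these arrays is included.

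**Figure D2:**
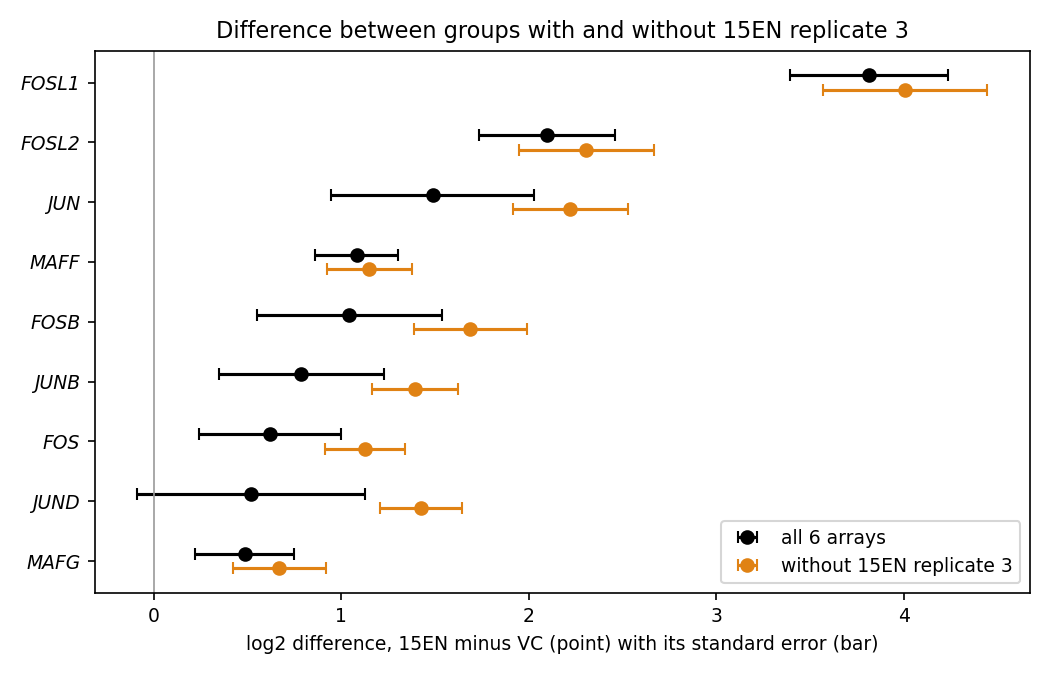
Log2 difference of each gene between 15EN and VC with its standard error, over all 6 arrays (black) and without 15EN replicate 3 (orange), ordered by the first. FOSL1, FOSL2 and MAFF moved little, from 3.81, 2.09 and 1.08 to 4.01, 2.31 and 1.15, whereas JUND went from 0.52 to 1.43.

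Of the small MAF genes, MAFF rose and MAFG did not pass. MAFF, a stimulus-inducible small MAF gene, was at 8.12, 8.69 and 8.20 in 15EN, against 7.29, 7.29 and 7.19 in VC. The groups did not overlap and 15EN replicate 3 lay between replicates 1 and 2. The log2 difference was 1.08 ± 0.22 (SE, adjusted p = 0.00685), or 2.12-fold, from a dim level in VC. It stayed past the threshold when any single array was omitted and under each scaling, with adjusted p up to 0.0351. MAFG, a broadly expressed small MAF, was at 6.001, 6.77 and 5.83 in 15EN and at 5.69, 5.69 and 5.77 in VC, dim in both groups. All its 15EN arrays lay above all VC arrays, replicate 3 by 0.06 over the VC array of its number. The difference was 0.49 ± 0.26 (SE, adjusted p = 0.243, 95% interval -0.10 to 1.07), and without 15EN replicate 3 it was 0.67 ± 0.25 (adjusted p = 0.064).

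Over the 9 genes, 3 were higher and 0 lower, against 12.3% and 9.09% of all genes. Counting by unadjusted p (threshold 0.05) gave 4 higher and 0 lower, JUN being added, against 18.2% and 14% of all genes. Their median log2 difference was 1.04 beside 0.01 over all genes. Without 15EN replicate 3, 8 were higher and 0 lower, MAFG being the exception, against 18.2% higher and 12.7% lower of all genes. With the replicate number as a block, 4 were higher, against 13.7%. With array weights, which count a deviating array less, 8 were higher, against 17.9%. After scaling to the hybridization controls all 9 were higher, against 68.7% of genes. Exact two-sided permutation tests over the 6 arrays cannot go below p = 0.1, the value reached by FOSL1, FOSL2, MAFF and MAFG.

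The 9 genes fell into a pair of patterns across the 15EN arrays. In replicates 1 and 2 all 9 lay above every VC array, against 28% of all genes. In replicate 3 this held for 4 of them, FOSL1, FOSL2, MAFF and, by a small margin and at a dim level, MAFG. Separation of all 15EN from all VC arrays in this direction was seen in 19.7% of all genes. For the other 5, FOS, FOSB, JUN, JUNB and JUND, replicate 3 was not above the VC arrays, a pattern of 8.21% of all genes, and for 4 of these it was below all of them, a pattern of 3.14% of all genes. The passage differences were above 0 at all 3 passages for 5 of the 9 genes, JUN and the 4 that were separated, against 27% of all genes. Among the 4944 genes with 15EN replicates 1 and 2 above all VC arrays, 29.4% had replicate 3 not above them. FOS, FOSB, JUN, JUNB and JUND had SDs of 0.89 to 1.59 in 15EN, against 0.11 to 0.33 in VC, while the median gene had 0.31 and 0.22. These 5 were grouped by the array pattern, which itself favours a wide 15EN spread, so the SDs add no separate evidence. An SD in 15EN as high as that of JUND was found in 0.141% of genes, of JUN in 0.322%, of FOSB in 0.492%, of JUNB in 1.18% and of FOS in 3.03%. Among the other 4 genes FOSL1 had a high SD in VC, 0.90, reached by 0.379% of genes. The deviation of 15EN replicate 3 over all genes moves with this pattern, and its part in it was not tested.

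**Figure D3:**
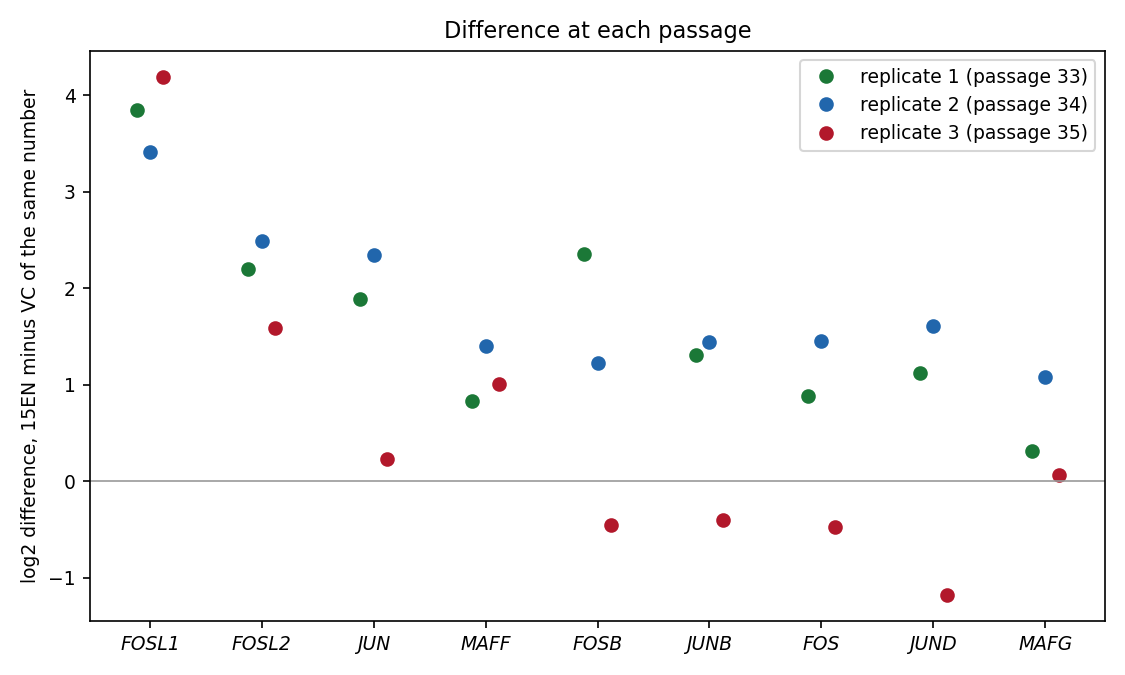
Log2 difference between the 15EN and the VC array of the same number, by gene. The differences at passage 35 (red) were 4.19 for FOSL1, 1.59 for FOSL2 and 1.01 for MAFF, and -0.47 for FOS, -0.45 for FOSB, -0.40 for JUNB and -1.17 for JUND.

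Partners that complete the dimers differed in both directions. Of 6 measured bZIP partners of FOS and JUN, 1 was higher and 2 lower (median -0.29), against 12.3% and 9.09% of all genes. ATF3, a stress-induced partner of JUN, rose by 4.32 ± 0.56 (SE, adjusted p = 0.000669), and its passage differences were 5.03, 5.29 and 2.64, smallest in replicate 3. It was dim in VC, so the size of this rise is uncertain. ATF2, the partner that binds the JUN promoter with JUN, fell by 0.88 ± 0.24 (SE, adjusted p = 0.0258), and JDP2, a repressor of AP-1, fell by 0.70 ± 0.21 (SE, adjusted p = 0.0384) to a mean that was dim. Both falls failed the threshold without any array other than 15EN replicate 3 (adjusted p from 0.0581 to 0.144), and after hybridization scaling they were at -0.01 and 0.17. JDP2 also failed with the replicate number as a block and with a trended robust prior. With the block another bZIP partner passed as lower, so the count of lower partners stayed at 2. The proteins of the CNC and large MAF genes pair with small MAFs or compete with them. Of 9 such genes measured, 2 were higher and 2 lower (median 0.06), against the same shares of all genes. NFE2L2, the activating partner in the antioxidant response, rose by 1.14 ± 0.20 (SE, adjusted p = 0.00315), and BACH1, the repressing partner, rose by 1.28 ± 0.24 (SE, adjusted p = 0.00461). NFE2L1, a relative of NFE2L2 that controls proteasome genes, fell by 1.43 ± 0.21 (SE, adjusted p = 0.00133). NFE2L3 fell by 2.16 ± 0.34 (SE, adjusted p = 0.00172) and was dim in the 15EN arrays. After hybridization scaling, which adds a constant to every gene, the fall of NFE2L1 did not pass against 0.

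Genes that act on FOS and JUN, as kinases and transcription factors upstream, were mixed. Of 19 measured, 5 were higher and 4 lower (median 0.07), against 12.3% and 9.09% of all genes. The JNK genes MAPK8 and MAPK9, whose kinases phosphorylate JUN, changed by -1.33 ± 0.22 (SE, adjusted p = 0.00217) and -1.26 ± 0.28 (SE, adjusted p = 0.0104), the latter not passing without VC replicate 2 (adjusted p = 0.0543). MAP3K5, a stress kinase upstream of JNK, fell by 0.98 ± 0.25 (SE, adjusted p = 0.0179), a call lost without any array except 15EN replicate 3 (adjusted p from 0.0584 to 0.07). These 3 falls did not pass against 0 after hybridization scaling. RPS6KA3, an ERK-activated kinase (RSK2), rose by 1.27 ± 0.22 (SE, adjusted p = 0.00298), ELK4, an SRF partner, by 0.88 ± 0.21 (SE, adjusted p = 0.0143) and MAP3K7 by 0.91 ± 0.23 (SE, adjusted p = 0.0168). ELK4 lost its call without 15EN replicate 2 or VC replicate 3, and MAP3K7 without replicate 1 of either group. Omitting 15EN replicate 1 or 2, or VC replicate 1 or 3, left 2 higher genes, and omitting VC replicates 1, 2 and 3 left 2, 1 and 2 lower genes. Over all 17687 genes, omitting any 1 of these arrays left 1301 to 1498 higher and 970 to 1213 lower, in place of 2179 and 1608. Without 15EN replicate 3, 7 were higher and 6 lower, against 18.2% and 12.7% of all genes. After hybridization scaling 11 were higher and 0 lower, against 68.7% of all genes higher and 437 of 17687 lower.

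Genes of AP-1 turnover rose in part, with 4 higher and 0 lower of 7 (median 1.00), against 12.3% and 9.09% of all genes. ZFP36, whose protein binds AU-rich elements and speeds decay of FOS and other short-lived mRNAs, rose by 2.56 ± 0.50 (SE, adjusted p = 0.0050), with passage differences of 2.73, 3.15 and 1.80. Its relative ZFP36L2 rose by 1.49 ± 0.26 (SE, adjusted p = 0.00331). FBXW7, the ubiquitin ligase subunit that targets JUN for degradation, rose by 1.43 ± 0.26 (SE, adjusted p = 0.00347). For each of these the difference in replicate 3 was the smallest of the passage differences and above 0.

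Textbook AP-1 target genes differed in both directions. Of 23 measured, 11 of them dim in both groups, 3 were higher and 3 lower (median -0.14), against 12.3% and 9.09% of all genes. After hybridization scaling 11 were higher and 1 lower, against 68.7% of all genes higher and 437 of 17687 lower. LIF, a cytokine, rose by 2.37 ± 0.28 (SE, adjusted p = 0.000455) from a dim level, VEGFA, the angiogenic growth factor, by 1.85 ± 0.22 (SE, adjusted p = 0.000464), and IL11 by 0.89 ± 0.21 (SE, adjusted p = 0.0133). CCND1, which encodes cyclin D1, fell by 1.93 ± 0.28 (SE, adjusted p = 0.00131), the protease gene PLAU fell by 1.32 ± 0.28 (SE, adjusted p = 0.00786), dim in 15EN, and the chemokine gene CXCL8, dim in both groups, fell by 0.99 ± 0.26 (SE, adjusted p = 0.0212). After hybridization scaling the falls of PLAU and CXCL8 did not pass against 0. IL11 failed without VC replicate 1 or 3, and CXCL8 without any array except 15EN replicate 3 and VC replicate 1. With 15EN replicate 3 left out, 4 were higher and 5 lower, against 18.2% and 12.7% of all genes. The replicate number as a block gave 4 higher and 4 lower, against 13.7% of all genes higher and 1788 of 17687 lower. Targets of NRF2 with small MAF partners had 11 higher and 0 lower of 18 (median 0.87), against 12.3% and 9.09% of all genes. HMOX1, heme oxygenase 1, rose by 7.80 ± 0.33 (SE, adjusted p = 4.36e-06) from a dim level, GCLM, a subunit of the glutathione-forming ligase, by 2.27 ± 0.23 (SE, adjusted p = 0.000236), and TXNRD1, thioredoxin reductase, by 1.71 ± 0.23 (SE, adjusted p = 0.000859). In replicate 3 these differed by 7.04, 1.92 and 1.86. The counts of the bZIP, CNC and large MAF, turnover and NRF2 lists were the same without 15EN replicate 3. Leaving out any other array gave 8 to 10 higher NRF2 targets, 3 or 4 higher turnover genes and 0 lower bZIP partners. Those smaller fits called fewer genes throughout, 1301 to 1498 higher and 970 to 1213 lower of 17687, in place of 2179 and 1608. Quantile normalization and removal of the brightness trend each gave 9 higher NRF2 targets and 3 higher turnover genes. After hybridization scaling the bZIP, CNC and large MAF, turnover and NRF2 lists had 3, 6, 7 and 15 higher genes. They had 0, 1, 0 and 0 lower genes. Under that scaling 68.7% of all genes were higher and 437 of 17687 were lower. The lists overlap in no gene with the 9 measured genes and were tested gene by gene only.

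**Figure D4:**
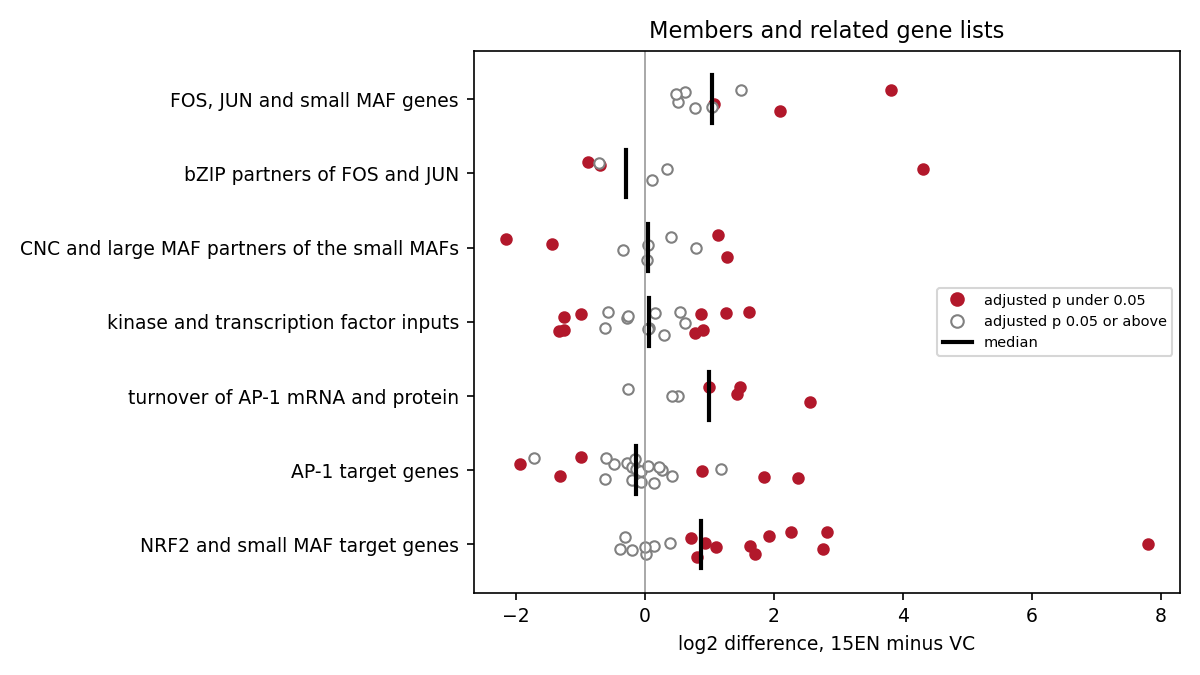
Log2 difference between 15EN and VC of the 9 genes and of each related list, with genes past adjusted p 0.05 in red, others as open circles and the list median as a black bar. The medians were 1.04 for the 9 genes, 1.00 for turnover genes, 0.87 for NRF2 and small MAF targets and between -0.29 and 0.07 for the other lists, and the point at 7.80 is HMOX1.

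Markers of adrenergic neuroblastoma cells, the type SH-SY5Y belongs to, were bright in VC for 10 of 12 measured genes, with CHGA and TH dim in both groups and DBH dim in 15EN. Of these 12, 0 were higher and 7 lower. For this and the other marker lists the shares over all genes were 12.3% higher and 9.09% lower. Among the lower genes were STMN2 (-1.72 ± 0.22, SE, adjusted p = 0.000687) and DBH (-1.59 ± 0.23, SE, adjusted p = 0.00112). The mean log2 signal of the adrenergic list was 10.2 to 10.3 in 15EN and 11.0 to 11.2 in VC. Substrate-adherent neuroblastoma markers had 2 higher and 3 lower of 12 and mean signals of 9.83 to 10.4 in 15EN and 10.2 to 10.4 in VC. YAP1, dim in VC, rose by 1.43 ± 0.21 (SE, adjusted p = 0.00118) and NOTCH2 fell by 1.51 ± 0.27 (SE, adjusted p = 0.00372). Fibroblast markers had 0 higher and 2 lower of 7, COL1A1 (-0.88 ± 0.27, SE, adjusted p = 0.0393, dim in 15EN) and THY1 (-0.79 ± 0.25, SE, adjusted p = 0.0459), with means of 9.79 to 10.5 and 10.3 to 10.8. Markers of Schwann cells and glia (5 measured) and of blood and microglia (6 measured) had 0 higher and 0 lower by limma (by unadjusted p, 1 lower and 0 lower, against 14% of all genes), with 4 and 5 dim in both groups. NGFR differed by -0.64 ± 0.27 (SE, adjusted p = 0.125), ERBB3 by -0.31 ± 0.25, HBB by 0.52 ± 0.27 and CD68 by -0.44 ± 0.39. Their means were 5.99 to 6.07 in 15EN and 6.15 to 6.30 in VC, and 5.64 to 6.14 and 5.68 to 6.06. Without 15EN replicate 3 the counts of lower genes were 8 for adrenergic, 4 for substrate-adherent and 3 for fibroblast markers, against 12.7% of all genes. No other count of a marker list moved. The marker lists were not counted with any other array left out, nor after hybridization scaling. That scaling moved the difference of the median gene from 0.01 to 0.88, so the falls of markers are relative to the median gene. The falls of COL1A1 and THY1 were of about that size. For a gene that was dim in either group the size of its difference is uncertain. The part of these marker differences in the results for the 9 genes was not tested.

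The genes whose profile over the 6 arrays lay nearest to that of FOSL1, by Euclidean distance between deviations from each gene's VC mean, were EDA2R (distance 1.04), a TNF receptor family member, GADD45A (1.45), a growth-arrest gene, and PIK3R1 (1.70), which encodes a PI3-kinase regulator. Their log2 differences were 3.74, 3.43 and 3.35, beside 3.81 for FOSL1.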

How the data were processed

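Values were the log2 signals deposited by the authors, 1 per probe set and array, made with the Transcriptome Analysis Console per the submitters' processing notes; its version, the summarization, the normalization and the build were not given in the sources used here. From the deposited values (2.20 to 18.8) their log2 scale was judged. Of 24351 probe sets, 21448 were gene probe sets and 17709 had 1 symbol in the platform annotation; all matched the RefSeq gene table by Entrez identifier. The probe set of highest mean over the 6 arrays was kept per gene (22 set aside), leaving 17687 genes with no filter on dim signals.

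A linear model with 1 term, the group, was fitted to all genes in limma 3.58.1 (R 4.3.3; lmFit, then eBayes). Tests were two-sided, p-values were adjusted over all genes by Benjamini-Hochberg, and the threshold was 0.05. A gene was called dim in a group when its mean lay under the group's mean 90th percentile of 612 negative control probe sets. The number of arrays limits the precision. Correlations of same-numbered arrays' deviations from their group means were 0.229, 0.162 and 0.133, and the titles tie each number to a passage in both groups. On both grounds the numbers pair the samples. Reported values come from the fit without this pairing. The fit with the number as a block is given where it changes the call of a member or of a gene named from the related lists. Members and lists were chosen with earlier results of these data known. The text names all members, up to 3 genes per direction of smallest p from each list among those past the threshold, 2 per marker list, and the 3 genes nearest to the member of largest difference. Alternatives were quantile normalization, median centring, hybridization control scaling, removal of a brightness trend, omission of the dimmest tercile, the replicate block, each array left out, array weights, a trended robust prior and the mean of probe sets. The fit was tested on simulated data.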

Additional observations from a re-analysis of the deposited data

How the results depend on the processing

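FOSL1, FOSL2 and MAFF kept their direction and their call under all 15 alternatives run. Over the 9 genes and these alternatives, 117 outcomes kept direction and side of the threshold, 17 newly passed and 1 reversed, JUND without 15EN replicate 2 (-0.053; leaving out 1 array gave it -0.053 to 1.43). The 17 came from hybridization control scaling, array weights, the omission of 15EN replicate 3 and, for JUN alone, the replicate block, which changed no other call among the 9 genes (JUN adjusted p = 0.0141, 4 genes higher in place of 3). The count of higher members was 9 after hybridization control scaling, which adds a constant to every gene, and 8 with array weights; leaving out 1 array gave 3 to 8. Over all genes, hybridization control scaling gave 12150 higher and 437 lower genes, and leaving out 1 array gave 1301 to 3227 higher and 970 to 2240 lower, in a smaller fit. Dim signals limit FOSB and MAFG in both groups and FOS and MAFF in VC. FOSL1 was not dim by its VC mean, but its VC replicate 3 lay at the level of the negative controls' 90th percentile.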

Other observations

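RPS6KA1, a kinase activated by ERK and chosen here after its values were seen, showed the array pattern of JUN, with 15EN replicate 3 within the VC range. Replicates 1 and 2 above all VC arrays with replicate 3 not above them was found in 2 of the 19 measured upstream genes, against 8.21% of all genes. In replicates 1, 2 and 3 of 15EN the log2 signal of RPS6KA1 stood at 9.67, 9.14 and 7.36, against 7.01, 6.88 and 7.44 in VC. Its difference was 1.62 ± 0.49 (SE, limma adjusted p = 0.0392), from a dim level in VC, and the call was lost without any array except 15EN replicate 3 (adjusted p from 0.0794 to 0.137). Its relative RPS6KA2 went the other way, by -1.25 ± 0.33 (SE, limma adjusted p = 0.0217). That call was lost on omission of any VC array (adjusted p from 0.0567 to 0.0909) and after hybridization scaling.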
